A study of Mus musculus with 6 samples.

Results

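The genes described here encode precursors of the cornified envelope, the cross-linked protein shell that replaces the plasma membrane of keratinocytes at the skin surface. They were taken as every array gene whose name, as given on the array or as updated through RefSeq, begins with Sprr or Lce, together with 12 genes chosen by name: Ivl, Lor, Flg, Flg2, Hrnr, Rptn, Tchh, Crnn, Cnfn, Krtdap, Sbsn and Asprv1. Of 27560 gene names on the array, 38 met this rule, with 47 probes. They comprised 12 Sprr genes, 15 Lce genes and 11 of the 12 chosen by name. Crnn had no probe under that name and was not analysed here. The design places 34 of the 38 on chromosome 3, in the cluster known as the epidermal differentiation complex.

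Primary keratinocytes from the epidermis of newborn wild-type mice were used, in an isolation that per the labels also yielded hair follicle buds. All cultures were transduced with v-ras-Ha, an activated ras oncogene, by an adenovirus at 10 viral particles per cell. Anakinra, a drug form of the natural antagonist of the interleukin-1 receptor, was given to 3 of the cultures 5 hours later at 5 ug/ml and replaced after 2 days. The 3 PBS cultures carried v-ras-Ha as well and received no antagonist. RNA of both groups was taken after 3 days in treatment, a span that includes the 2 days before replacement. No untransduced group was analysed here, so no effect of ras itself can be read from the comparison. Whether the replicates are separate animals or dishes is not labelled, so the p-values reflect only how far these samples spread, which may be technical.

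When a keratinocyte leaves the basal layer it first makes the spinous keratins and later the envelope precursors. Involucrin is laid down early, loricrin becomes the main mass of the envelope, and the small proline-rich (Sprr) and late cornified envelope (Lce) proteins are cross-linked to them by transglutaminases. Filaggrin and its relatives combine an S100 calcium-binding part with long repeats, and filaggrin bundles keratin filaments before it is broken down into small moisture-holding compounds. Sprr genes are also known for induction in stressed and inflamed epithelia, and Lce3 genes for induction after injury to the skin barrier.

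The labelled cell type was checked against keratins. The basal keratin genes Krt5, Krt14 and Krt15 were well above background on all 6 arrays, as were the spinous keratin genes Krt1 and Krt10, while Krt2, a keratin of the upper epidermis, was above background on 3 arrays and was not tested. Signal is given below as a multiple of the 75th percentile of the same array, and changes are log2 Anakinra minus PBS with their standard error (SE). A gene counts as called when its adjusted p is under 0.05 in limma, a linear model per gene, with Benjamini-Hochberg adjustment over 16491 tested genes. The share of probes well above background was 62.5% to 71.0% on PBS arrays. On Anakinra 1, Anakinra 2 and Anakinra 3 it was 56.1%, 86.5% and 55.6%, so Anakinra 2 stood apart from its group. Arrays within a group correlated at 0.957 to 0.983 in Anakinra and 0.995 to 0.997 in PBS. No spot was saturated, and precision is limited by having 3 arrays in each group.

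Promoter sequences of 36 of the 38 genes were found in RefSeq for build GRCm38.p6, the exceptions being Sprr2g and Lce1f. The 250 bases before each start were searched on both strands. TATAAA, the core of the TATA box, was present in 17 of the 36 (47.2%), against 12.4% of 32851 promoters in the table. TGANTCA, the core bound by AP-1 factors, was present in 15 (41.7%), against 6.75%. ATGCAAAT, the octamer bound by POU factors, was present in 6 (16.7%), against 1.601%. All 6 were Sprr2 genes, and they were the same 6 of 7 Sprr2 promoters that held all of these motifs. None of the 14 Lce promoters held TGANTCA and 2 held TATAAA, counted only as these exact letters. The core of KLF sites, CACCC, was in 18 of the 36, against 52.0% of all promoters. A loose core of NF-kB sites was in 22 of the 36 (61.1%), against 45.8%. A match is a description of letters and not evidence of binding, and family members share these sequences by descent, so they do not count as independent cases.

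The promoters of 4 Sprr2 genes are shown because each holds the TATA box core, the AP-1 core and the octamer. The signal of Sprr2f and Sprr2d was lower, and that of Sprr2e and Sprr2k higher, on every Anakinra array than on any PBS array. Capitals mark the TATA box core, the AP-1 core and the octamer, on either strand. The octamer lies on the reverse strand and therefore reads as its reverse complement, ATTTGCAT.
Sprr2f: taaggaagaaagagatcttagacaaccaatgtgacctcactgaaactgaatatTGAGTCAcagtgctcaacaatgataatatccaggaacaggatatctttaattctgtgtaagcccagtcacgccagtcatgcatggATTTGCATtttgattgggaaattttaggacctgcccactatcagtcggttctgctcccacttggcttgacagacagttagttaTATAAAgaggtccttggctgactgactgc
Sprr2d: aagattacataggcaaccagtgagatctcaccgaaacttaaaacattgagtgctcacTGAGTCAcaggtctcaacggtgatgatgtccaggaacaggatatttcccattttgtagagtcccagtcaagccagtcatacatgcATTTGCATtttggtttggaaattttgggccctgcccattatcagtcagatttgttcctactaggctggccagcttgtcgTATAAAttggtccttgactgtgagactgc
Sprr2e: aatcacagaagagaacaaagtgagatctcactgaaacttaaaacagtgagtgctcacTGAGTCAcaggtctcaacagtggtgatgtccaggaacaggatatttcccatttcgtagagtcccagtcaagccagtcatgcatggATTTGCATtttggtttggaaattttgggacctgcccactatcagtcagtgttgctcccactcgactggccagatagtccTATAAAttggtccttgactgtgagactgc
Sprr2k: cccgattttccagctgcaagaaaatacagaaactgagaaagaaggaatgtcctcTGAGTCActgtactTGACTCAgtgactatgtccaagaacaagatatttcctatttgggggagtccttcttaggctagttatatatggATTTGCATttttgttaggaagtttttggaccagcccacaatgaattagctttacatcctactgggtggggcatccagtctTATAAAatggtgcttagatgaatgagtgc
They lie at chr3:92364937-92365186 for Sprr2f, chr3:92338890-92339139 for Sprr2d, chr3:92351893-92352142 for Sprr2e and chr3:92432332-92432581 for Sprr2k, all on the plus strand of GRCm38.p6. In each, TATAAA begins 29 bases before the start. Sprr2d and Sprr2e were identical at 89.3% of aligned positions, Sprr2e and Sprr2f at 73.9%, and Sprr2f and Sprr2k at 62.2%. Aligned in the same way, a Sprr2 and a Lce promoter were identical at 46.7% (Sprr2a1 and Lce1j) to 55.9% (Sprr2b and Lce1b). Sprr2k held TGANTCA at a pair of places, 196 and 182 bases before the start, and the other three held it once.

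The promoters of the filaggrin relatives with the largest changes, Hrnr and Flg2, are shown for contrast, with the same capitals.
Hrnr: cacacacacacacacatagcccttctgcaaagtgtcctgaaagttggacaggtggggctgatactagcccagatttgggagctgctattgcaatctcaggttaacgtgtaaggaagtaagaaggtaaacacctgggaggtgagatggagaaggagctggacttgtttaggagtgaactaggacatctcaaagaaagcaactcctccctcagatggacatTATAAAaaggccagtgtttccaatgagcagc
Flg2: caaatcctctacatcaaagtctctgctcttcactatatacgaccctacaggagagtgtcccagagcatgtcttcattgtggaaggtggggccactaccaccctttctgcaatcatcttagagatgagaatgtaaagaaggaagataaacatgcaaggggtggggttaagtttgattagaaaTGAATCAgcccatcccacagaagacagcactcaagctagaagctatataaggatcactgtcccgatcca
They lie at chr3:93319499-93319748 and chr3:93197023-93197272, on the plus strand. Hrnr held TATAAA 31 bases before the start and no TGANTCA. Flg2 held TGANTCA 69 bases before the start and no TATAAA in this window. Only these exact letters were counted, so the tatataag near the end of the Flg2 sequence was not.

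Most envelope genes had more signal with Anakinra. The largest rises were in filaggrin-type genes and in Lce1 genes, while Sprr2f was called lower. Sprr2d, Lce3f and Lce3c were not called, but were lower on every Anakinra array than on any PBS array. Of the 38 genes, 8 were called higher, against 0.970% of all tested genes, and 1 was called lower, against 0.800%. The 8 were Flg2, Hrnr, Lce1c, Lce1b, Flg, Sprr2k, Ivl and Tchh, and the 1 lower was Sprr2f. The groups did not overlap, with Anakinra higher, in 26 of the 38, against 12.5% of all genes with 6 values. They did not overlap, with Anakinra lower, in 4, against 13.8%, and they overlapped in the other 8. The median change was 0.43 over the 38 and 0.01 over all tested genes. All 47 probes were well above background on all 6 arrays, so no gene entered through 1 group alone. In RNA from whole cultures, more cells of a type and more RNA per cell cannot be told apart.

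The directions depend in part on the scaling. With each array's median in place of its 75th percentile, the median of all tested genes was -0.32 and that of the envelope genes 0.10, a difference of 0.42 as before. On that scale 25 of the 38 changes were positive, against 32 on the reported scale. Sprr2g, Sprr1a, Lce1e, Lce1i, Asprv1, Cnfn and Sbsn, none of them called, turned negative, and the 9 called genes kept their sign but did not pass. In that fit the SE was 0.446 for every envelope gene, while for Hrnr it was 0.144 on the reported scale. Hrnr was still at 1.22 and Flg2 at 1.25, so the lost calls do not mean that their changes vanished.

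**Figure D1:**
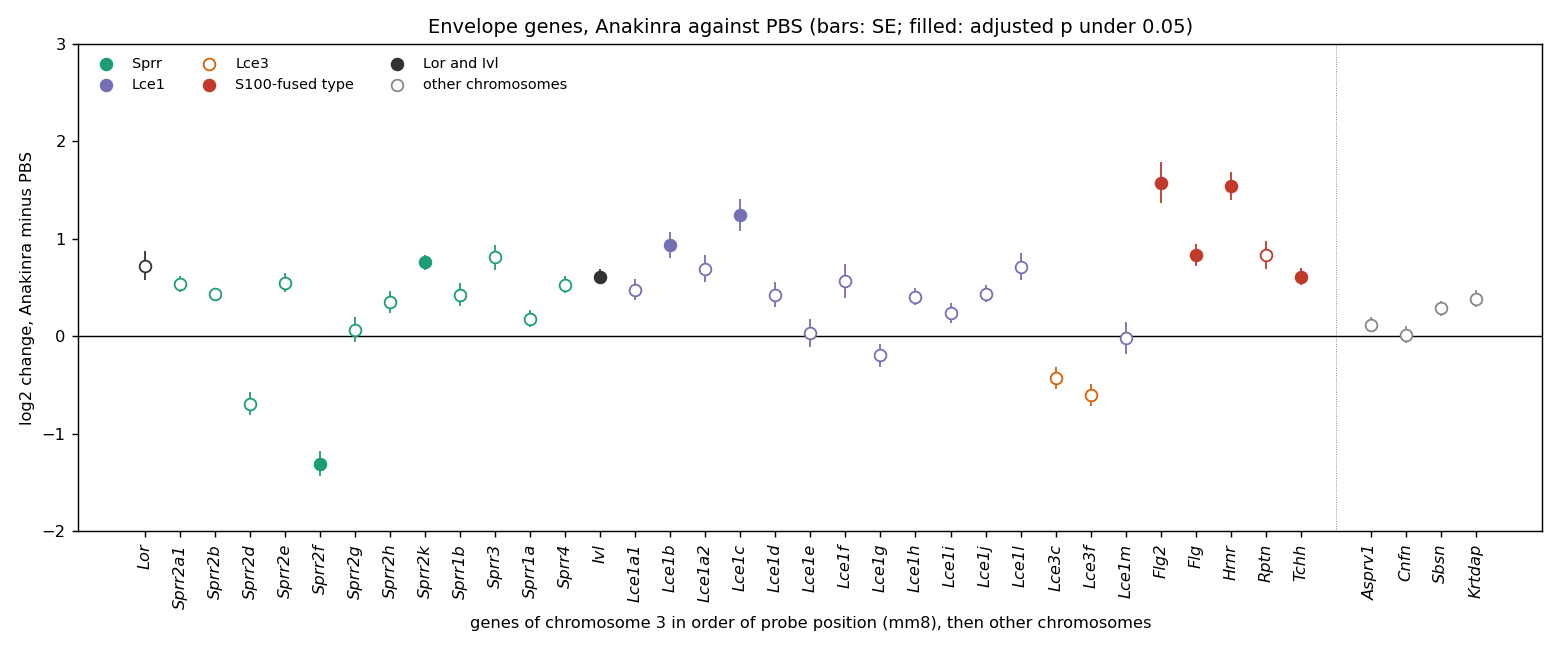
Log2 change (Anakinra minus PBS, vertical axis, bars are SE, n = 3 per group) of each envelope gene, with chromosome 3 genes in the order of their probes and those of other chromosomes after the dotted line. Filled points passed the limma test: 8 above 0 and Sprr2f below it; with array-median scaling Sprr2g, Sprr1a, Lce1e, Lce1i, Asprv1, Cnfn and Sbsn fell below 0.

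**Figure D2:**
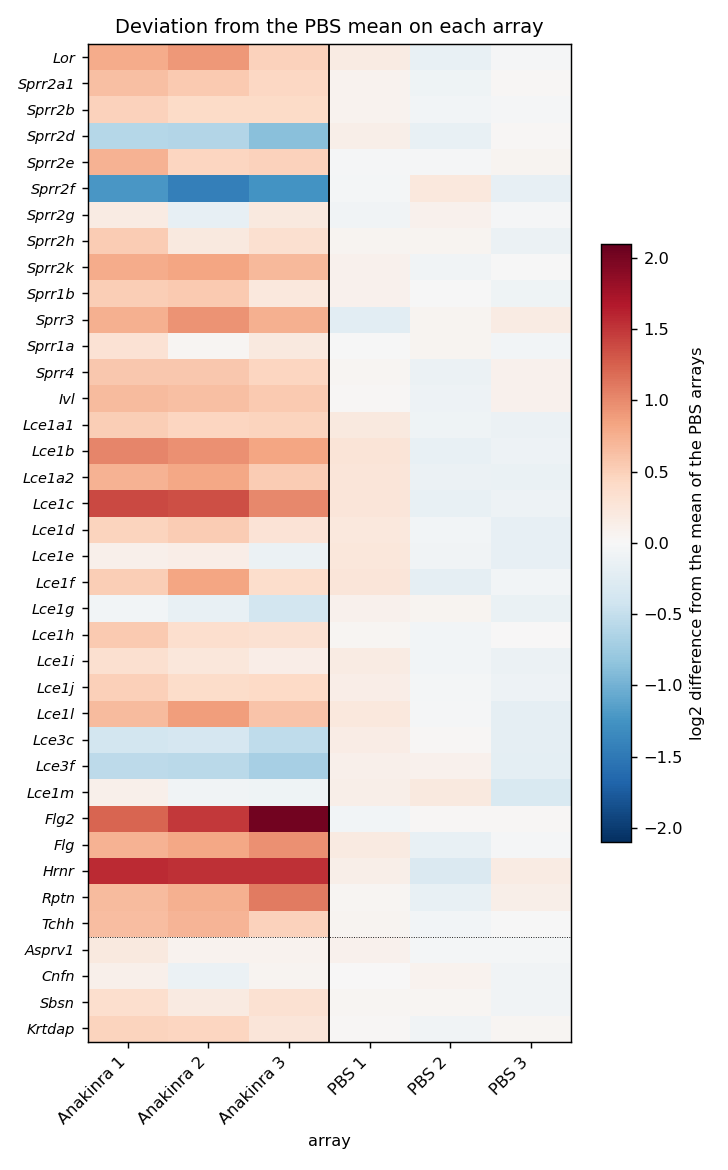
Log2 difference of each array (columns, Anakinra arrays left of PBS arrays) from the mean of the PBS arrays for each envelope gene (rows, chromosome 3 order, other chromosomes under the dotted line). Sprr2f, Sprr2d, Lce3c, Lce3f and, by a smaller margin, Lce1g were below the PBS mean on all 3 Anakinra arrays, while most other rows were above it; rows near 0, such as Cnfn and Lce1m, change sign with the scaling.

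At the probe that stood for each gene, the filaggrin-type genes had more signal on every Anakinra array than on any PBS array. Of 5, 4 were called higher, none lower, and the groups did not overlap in any, with a median change of 0.83. Flg2, a filaggrin relative of the upper epidermis, had a signal of 0.491, 0.589 and 0.860 times the 75th percentile in Anakinra cultures, against 0.203, 0.215 and 0.214 in PBS cultures. Every Anakinra array was above every PBS array, and the PBS arrays lay close together. The change was 1.58 ± 0.21, or 2.99-fold (SE, n = 3 per group, limma adjusted p = 0.0387). Its probe lies at chr3:93306122-93306181 of mouse build mm8, the build of the array design.

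Hornerin, Hrnr, another filaggrin relative, gave 2.38, 2.32 and 2.32 in Anakinra cultures, against 0.877, 0.648 and 0.906 in PBS cultures. The Anakinra arrays were nearly equal, and the lowest was far above the highest PBS array. The change was 1.55 ± 0.14, or 2.92-fold (limma adjusted p = 0.0153). A second, dimmer Hrnr probe changed by 1.83. Filaggrin itself, Flg, gave 14.4, 15.3 and 16.9 in Anakinra cultures, against 9.87, 7.85 and 8.51 in PBS cultures. The groups did not overlap, and the change was 0.83 ± 0.12 (limma adjusted p = 0.0395).

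Trichohyalin, Tchh, which stiffens the inner root sheath of the hair follicle, gave 6.86, 7.18 and 6.15 in Anakinra cultures, against 4.59, 4.23 and 4.37 in PBS cultures. The change was 0.61 ± 0.08 (limma adjusted p = 0.0391). Its second, dimmer probe changed by 0.40 with overlapping groups, at 0.296, 0.298 and 0.167 in Anakinra cultures, against 0.189, 0.159 and 0.214 in PBS cultures. With the mean of both probes Tchh did not pass (limma adjusted p = 0.265). Inner root sheath keratins were sparse: Krt27 and Krt71 were the 2 tested of 7 listed, and their p-values were 0.971 and 0.603 after adjustment in limma. Repetin, Rptn, a further gene of the filaggrin type, gave 4.09, 4.31 and 5.48 in Anakinra cultures, against 2.66, 2.31 and 2.79 in PBS cultures. Its groups did not overlap either, but the change of 0.83 ± 0.14 did not pass (limma adjusted p = 0.0692).

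Involucrin, Ivl, an early scaffold of the envelope, gave 21.8, 21.5 and 20.2 in Anakinra cultures, against 14.02, 12.8 and 14.7 in PBS cultures. All Anakinra arrays were above all PBS arrays, and the change was 0.61 ± 0.08, or 1.53-fold (limma adjusted p = 0.0323). Loricrin, Lor, gave 153, 168 and 125 in Anakinra cultures, against 101, 80.0 and 87.6 in PBS cultures. All Anakinra arrays were higher, while the change of 0.73 ± 0.15 did not pass (limma adjusted p = 0.0960). The Lor change was thus as large as that of Ivl, with a wider spread between arrays.

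**Figure D3:**
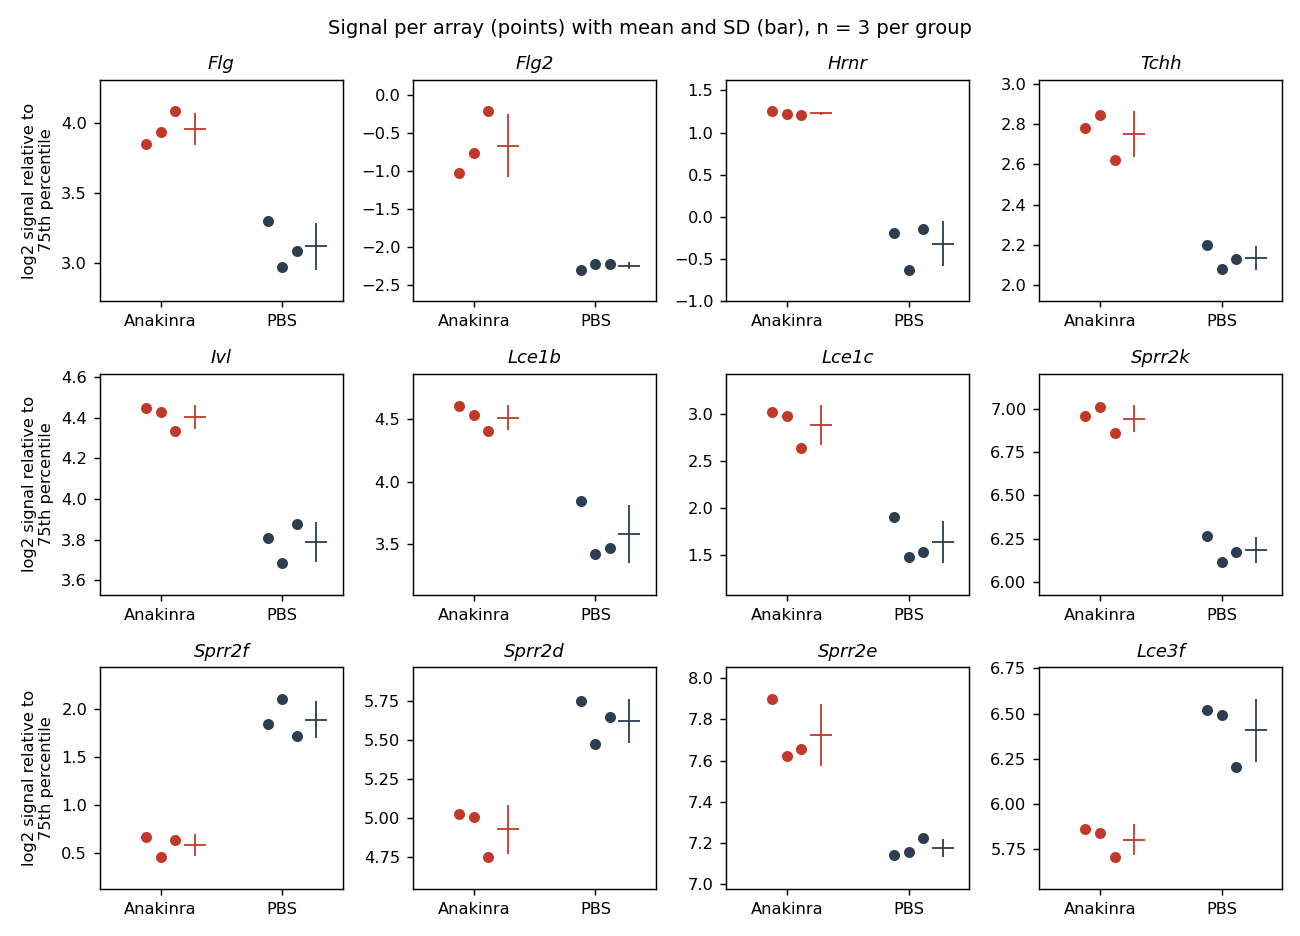
Log2 signal relative to the 75th percentile of the array (vertical axes differ between panels) for the 9 called genes and for Sprr2d, Sprr2e and Lce3f, one point per array with mean and SD, Anakinra left of PBS. Anakinra lies above PBS in the panels of the 8 genes called higher and of Sprr2e, and below it in those of Sprr2f, Sprr2d and Lce3f; none of these directions changed with array-median scaling.

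Among 13 Lce1 genes, 2 were called higher, against 0.970% of all tested genes, and none lower. The median change was 0.44. The groups did not overlap in 9, all higher, against 12.5% of all genes with 6 values. Lce proteins are small and rich in glycine, serine and cysteine, and join the envelope late. Lce1c gave 8.14, 7.91 and 6.23 in Anakinra cultures, against 3.73, 2.80 and 2.89 in PBS cultures. Anakinra 3 was the lowest of its group and still well above PBS 1, the highest of the other. The change was 1.24 ± 0.16, or 2.37-fold (limma adjusted p = 0.0353). Lce1b gave 24.3, 23.2 and 21.2 in Anakinra cultures, against 14.4, 10.7 and 11.04 in PBS cultures. It changed by 0.94 ± 0.14 (limma adjusted p = 0.0474), and by 0.90 at its second probe.

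The other 11 Lce1 genes did not pass. The groups did not overlap for Lce1l at 0.71, Lce1a2 at 0.69, Lce1f at 0.57, Lce1a1 at 0.48, Lce1j at 0.44, Lce1d at 0.43 and Lce1h at 0.41. They overlapped for Lce1i at 0.24, Lce1e at 0.04, Lce1m at -0.02 and Lce1g at -0.20, and with array medians Lce1i and Lce1e were negative. Lce1g had a second, dimmer probe at 0.30, so its probes disagreed in sign. PBS 1 was the highest PBS array for 12 of the 13 Lce1 genes, as the map of deviations shows. Lce1 genes are close copies of each other, so a probe may bind the transcripts of several, and the probe sequences were not used here.

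The Lce3 genes, known for induction after barrier injury, had less signal with Anakinra. Lce3f gave 58.2, 57.3 and 52.2 in Anakinra cultures, against 91.7, 90.2 and 73.9 in PBS cultures. Lce3c gave 118, 120 and 106 in Anakinra cultures, against 171, 157 and 135 in PBS cultures. For both, every Anakinra array was below every PBS array. Neither passed: the changes were -0.60 ± 0.11 for Lce3f and -0.42 ± 0.11 for Lce3c (limma adjusted p = 0.0779 and 0.166), and a second Lce3c probe changed by -0.41.

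The 12 Sprr genes were divided. In all, 1 was called higher, 1 lower and 10 were not called, against 0.970% higher and 0.800% lower of all tested genes. Of the 12, 8 belong to the Sprr2 family. Sprr2f gave 1.59, 1.37 and 1.55 in Anakinra cultures, against 3.59, 4.31 and 3.31 in PBS cultures. The Anakinra arrays were all below the PBS arrays, and the change was -1.31 ± 0.13, or 2.48-fold lower (limma adjusted p = 0.0161). Sprr2k gave 124, 129 and 116 in Anakinra cultures, against 77.0, 69.3 and 72.2 in PBS cultures. There every Anakinra array was above every PBS array, with a change of 0.76 ± 0.08 (limma adjusted p = 0.0180). The probes lie at chr3:92451740-92451799 for Sprr2f and chr3:92518789-92518848 for Sprr2k (mm8).

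Sprr2d and Sprr2e, whose promoters were the most alike of the 4 printed above, differed in sign. Sprr2d gave 32.6, 32.1 and 26.9 in Anakinra cultures, against 53.7, 44.4 and 49.96 in PBS cultures. Sprr2e gave 239, 197 and 202 in Anakinra cultures, against 141, 142 and 150 in PBS cultures. Neither gene had overlapping groups, and the order was opposite. Neither passed, with changes of -0.69 ± 0.12 for Sprr2d and 0.55 ± 0.10 for Sprr2e (limma adjusted p = 0.0650 and 0.0695), and the difference between these genes was not tested.

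The remaining Sprr2 genes did not pass. Sprr2a1 was at 0.54 (limma adjusted p = 0.0558), while its second probe was at -0.014. Sprr2b was at 0.43 and Sprr2h at 0.36, each without overlap of the groups. Sprr2g was at 0.07 with overlap, and at -0.26 with array medians. Like the Lce1 genes, the Sprr2 genes are near copies, so a probe may bind several of them.

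Outside the Sprr2 family, Sprr3, best known from the lining of the mouth and oesophagus, gave 0.114, 0.131 and 0.115 in Anakinra cultures, against 0.0583, 0.0712 and 0.0765 in PBS cultures. No PBS array reached the lowest Anakinra array, but the change of 0.81 ± 0.13 did not pass (limma adjusted p = 0.0567). This probe was the dimmest of those that stood for the envelope genes. The change of Sprr3 was 0.44 with normexp background correction and 0.44 with quantile scaling (limma adjusted p = 0.0683 and 0.439). Sprr4 was at 0.53 and Sprr1b, a gene of stressed epithelia, at 0.43, again without overlap. Its close relative Sprr1a was at 0.18 with overlap and at -0.15 with array medians.

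Of the 4 genes outside chromosome 3 none was called, against 0.970% higher and 0.800% lower of all tested genes. Their median change was 0.20. Krtdap, a secreted peptide of differentiating keratinocytes, was at 0.39 ± 0.09 and suprabasin, Sbsn, another secreted protein of the upper layers, at 0.29 ± 0.08. The groups did not overlap for either, though Sbsn was at -0.044 with array medians. Asprv1, a protease that cuts profilaggrin, was at 0.12 ± 0.07 and cornifelin, Cnfn, at 0.02 ± 0.09. These overlapped between groups and turned negative with array medians, at -0.21 and -0.31.

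Along chromosome 3, calls were scattered among genes that were not called. The called genes lay at Sprr2f and Sprr2k within the Sprr run, at Ivl, at Lce1b and Lce1c, and at Flg2, Flg, Hrnr and Tchh at the far end. In probe order Sprr2d and Sprr2f, the Sprr genes with negative changes, flank Sprr2e, which had a positive one. Of 7 other tested genes with probes between the outermost members, none was called, against 0.970% higher and 0.800% lower of all tested genes. The nearest to the threshold, LOC620355, whose probe lies between those of Flg2 and Flg, was at 0.91 ± 0.16 (limma adjusted p = 0.0690).

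Genes that act on the envelope precursors were counted from lists, beside 0.970% of all tested genes called higher and 0.800% called lower. Of 10 cross-linking, scaffold and junction genes, 3 were called higher and none lower. Transglutaminase 1, Tgm1, which cross-links the precursors, was at 0.71 ± 0.07 (limma adjusted p = 0.0151). The desmosomal cadherins Dsc1 and Dsg1a, which hold the cells together, were at 1.23 ± 0.11 and 1.78 ± 0.15. Of 13 proteases, other processing enzymes and inhibitors, 2 were called higher and none lower. Casp14, the caspase that takes part in filaggrin breakdown, was at 1.08 ± 0.14 and the kallikrein Klk5, which sheds corneocytes, at 0.999 ± 0.096. Of 12 S100 genes, 1 was called lower, S100a8, a subunit of the inflammatory protein calprotectin, at -0.73 ± 0.08. Of 6 other genes of the complex none was called, with Kprp at 0.24 and Pglyrp3 at -0.28 having the smallest p. Of 15 transcription factors linked to envelope genes none was called, with Zfp750 at 0.26 and Nfe2l2 at -0.24 the nearest. When slide was added as a block, all 6 called genes lost the call, with limma adjusted p-values of 0.0746 for Tgm1, 0.0647 for Dsc1 and Dsg1a, 0.0748 for Casp14, 0.0759 for Klk5 and 0.0956 for S100a8.

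The spinous keratins Krt1 and Krt10, which mark the step before envelope assembly, had larger changes than any of the 38 envelope genes. Krt1 gave 11.2, 13.1 and 9.90 in Anakinra cultures, against 2.41, 1.75 and 2.60 in PBS cultures. Krt1 and Krt10 were at 2.35 ± 0.19 and 2.40 ± 0.26 (limma adjusted p = 0.0112 and 0.0206; 0.0599 and 0.0938 with the slide as a block, where neither passed). The basal keratins were not called, with Krt5 at -0.14, Krt14 at -0.04 and Krt15 at 0.52.

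Markers of other cells were measured as well. The 6 fibroblast markers had a median change of 0.43, as large as that of the envelope genes. Of these, 2 were called higher, Lum at 1.43 and Col3a1 at 0.95, and none lower, against 0.970% and 0.800% of all tested genes. Neither Lum nor Col3a1 passed with the slide as a block (limma adjusted p = 0.0555 and 0.142). The changes were positive in 5 of the 6, and Dcn went the other way at -0.38 ± 0.07. Dcn gave 0.317 to 0.332 in Anakinra cultures and 0.406 to 0.446 in PBS cultures, and did not pass (limma adjusted p = 0.0703). Lum, a dim probe with 0.0582 to 0.0794 in Anakinra cultures and 0.0225 to 0.0277 in PBS cultures, was at 0.51 with normexp background correction. The summed signal of the 6 fibroblast markers was 8.69 to 9.99 in Anakinra cultures and 7.01 to 8.51 in PBS cultures. None of 6 melanocyte markers was called, and their summed signal was 104 to 113 in Anakinra cultures and 90.6 to 109 in PBS cultures. None of 3 immune and 4 endothelial markers that were tested was called. The part of other cells in the envelope changes was not tested.

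The calls were close to the threshold. The 6 arrays lay on 2 slides, with Anakinra 1, PBS 2 and PBS 3 on slide 1 and Anakinra 2, Anakinra 3 and PBS 1 on slide 2. Within slides 1 and 2, Hrnr differed by 1.64 and 1.40, Flg2 by 1.20 and 1.81, Lce1c by 1.52 and 0.91, and Lce1b by 1.16 and 0.62. The same differences were 0.82 and 0.67 for Sprr2k, 0.67 and 0.57 for Ivl, 0.67 and 0.53 for Tchh, and -1.25 and -1.30 for Sprr2f. Flg differed by 0.82 and 0.70, and all 9 kept their direction in both slides. When slide was added as a block, the 9 genes no longer passed, with limma adjusted p-values from 0.0756 for Hrnr to 0.151 for Lce1b.

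Leaving out Anakinra 1, PBS 1, PBS 2 or PBS 3 left no envelope gene called. Without Anakinra 2, 2 were higher, Hrnr and Sprr2k, and Sprr2f was lower, and without Anakinra 3, 2 were higher, Sprr2k and Flg2. In every such fit 27 or more of the 38 had an unadjusted p under 0.05. With all arrays 30 of the 38 did, against 2654 of all 16491 tested genes. On the scale of array medians, with all arrays, 6 of the 38 did, with an SE of 0.446 for every envelope gene. The median change over the 38 genes ran from 0.41 to 0.52 when 1 array was left out.

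**Figure D4:**
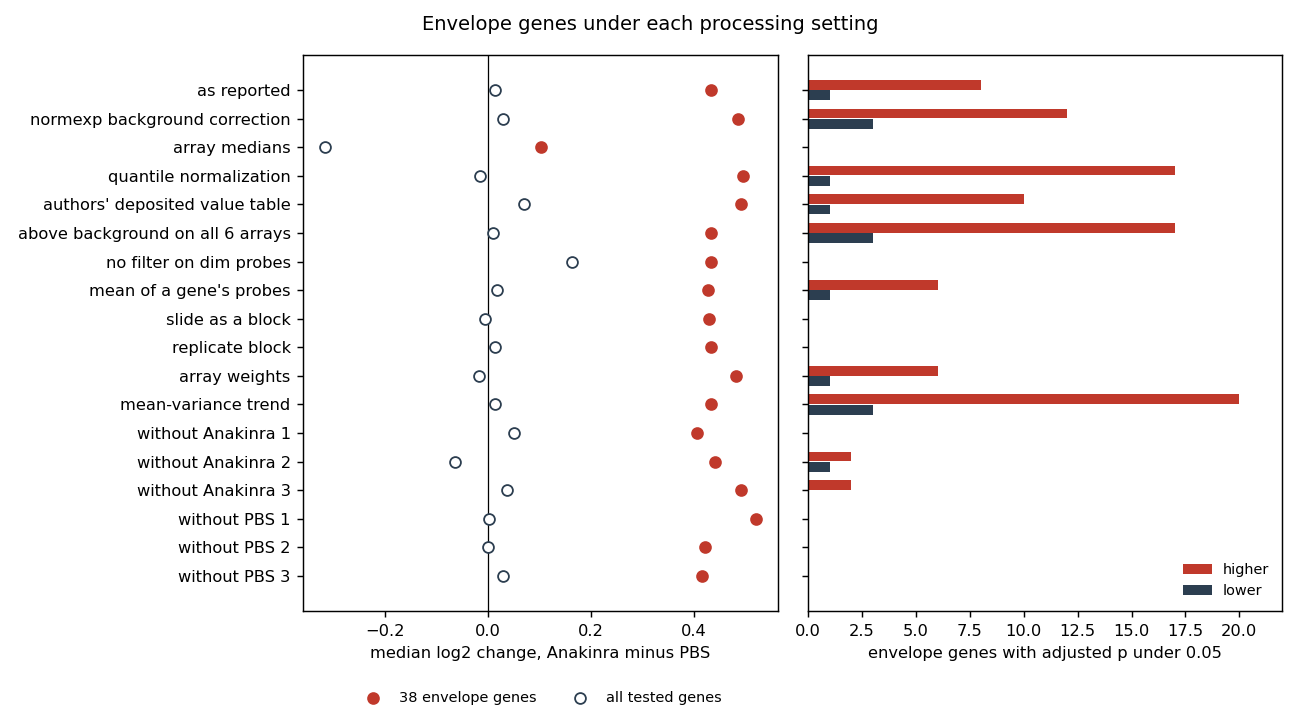
Median log2 change (left) of the 38 envelope genes and of all tested genes, and number of envelope genes called (right, higher and lower), under each processing setting. The gap between the medians was 0.27 or more in every setting shown, while the calls ran from 0 to 20 higher and 0 to 3 lower; with array medians the medians were 0.10 and -0.32.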

How the data were processed

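RNA from 6 cultures was measured on 6 Agilent 1-colour arrays. Per the file headers, the authors read each array with Agilent Feature Extraction 9.5.3.1. The deposited scanner files give intensity per spot, with the background already subtracted in the processed column. The authors' deposited table holds log2 values, which equalled the log2 of the processed intensity plus 1 constant per array, to within 0.0005. Its column medians were 5.74, 7.00 and 6.21 for Anakinra and 5.77, 5.83 and 6.22 for PBS, and how the constants were set was not given here.

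From these, log2 of the processed intensity minus the array's 75th percentile was computed, without control or outlier-flagged spots. A probe was tested if 1 group or both had it well above background on every array, with at least 2 values per group. The probe with the highest mean signal stood for a gene. Of 41174 probes, 23374 were named by accession, 6733 by current symbol, 2919 by synonym and 184 by gene ID, through RefSeq genes of GRCm38.p6, and 7964 kept their array name. The array design gave the probe positions.

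Anakinra was compared with PBS in limma 3.58.1 (R 4.3.3), two-sided, with Benjamini-Hochberg adjustment over 16491 genes. Tables and sequences were handled in Python 3.11.15 with pandas 2.3.3 and Biopython 1.88. The fit was also run on simulated data with independent noise for each gene. Those data held no shifts shared across an array, so they do not show how the fit behaves on these arrays. All tested members were named, and from each related list the called genes or the 2 with the smallest p. The members and lists were chosen with earlier results of these data known, and the lists therefore lend no independent support. The alternatives were normexp background correction with an offset of 50, array medians, quantile scaling, the authors' table, other filters on dim probes, the mean of a gene's probes, slide and replicate number as blocks, array weights, leaving out each array, and a mean-variance trend. Same-numbered arrays did not deviate together (correlations of 0.41, -0.49 and -0.21), so the numbers were not taken as pairs.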

Additional observations from a re-analysis of the deposited data

How the results depend on the processing

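The median change of the envelope genes stayed positive in all settings, and the number of calls did not stay the same. Envelope genes higher and lower were 8 and 1 as reported. They were 10 and 1 with the authors' table (Flg2 not passing), 6 and 1 with the mean of a gene's probes (Tchh and Lce1b not passing), 6 and 1 with array weights (Ivl, Lce1b and Flg not passing), 12 and 3 with normexp, 17 and 1 with quantile scaling, 17 and 3 among probes above background on all 6 arrays, and 0 and 0 with array medians (median 0.10), without a filter on dim probes and with the slide as a block. With a mean-variance trend, chosen after seeing the data, they were 20 and 3. With 1 array left out they ran from 0 to 2 higher and 0 to 1 lower, with a median of 0.41 to 0.52. With the replicate number as a block they were 0 and 0, with 29 of 38 at an unadjusted p under 0.05 (the numbers do not pair the arrays). Over all tested genes, 160 were higher and 132 lower as reported. These were 197 and 170 with normexp and 190 and 158 with quantile scaling. With the authors' table they were 175 and 125, and with the mean of a gene's probes 140 and 113. The counts were 8 and 49 with array medians, 338 and 240 with probes above background on all arrays, 7 and 29 without a filter, 18 and 35 with the slide block, 0 and 0 with the replicate block, and 418 and 376 with the trend. With 1 array left out they ran from 1 to 97 higher and from 7 to 137 lower. Changes in sign were confined to genes that were not called. With array medians they were Sprr2g at -0.26, Sprr1a at -0.15, Lce1e at -0.29, Lce1i at -0.090, Asprv1 at -0.21, Cnfn at -0.31 and Sbsn at -0.044. With normexp they were Sprr2g at -0.029, Lce1m at 0.026 and Cnfn at -0.081. Lce1m was at 0.0095 with quantile scaling, 0.04 with the authors' table and 0.012 with array weights, Lce1g at 0.053 with the mean of its probes, and Lce1e at -0.0093 with the slide block. With 1 array left out, Cnfn ranged from -0.031 to 0.087, Lce1e from -0.052 to 0.16, Sprr2g from -0.00029 to 0.19 and Lce1m from -0.18 to 0.083. The filter changed how many genes entered the adjustment, and it changed the SE as well. For Hrnr the SE was 0.144 as reported, 0.160 without a filter and 0.137 among probes above background on all 6 arrays. With array medians the SE was 0.446 for every envelope gene. The cause of the differences in calls was not tested for any setting.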
